A study of Homo sapiens with 4 samples.

Results

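The GTF2IRD1 and CLIP2 locus on the long arm of chromosome 7 (band 7q11, hg19 chr7:73600000-74250000, 650 kb) was followed in maps of chromatin loops at acetylated lysine 27 of histone H3 (H3K27ac) from 4 colorectal cancer cell lines. The locus was chosen by a measured value, since the loop with most paired-end tags (PETs) of the whole SW480 library lies in it. Values of that loop are therefore a description, with no test. Members were all loops, and all pairs of an anchor with itself (same-anchor pairs), that had an anchor midpoint inside these coordinates, and the 3 genes whose transcription start sites (TSS) were given for the locus. These were CLIP2 at 73704000, GTF2IRD1 at 73868000 and GTF2I at 74072000, each to the nearest kb. They made 361 of 184225 loops and 67 of 72787 same-anchor pairs over the 4 libraries. By line, the locus held 107 of 62104 loops in SW620, 20 of 7024 in SW480, 157 of 74401 in LS513 and 77 of 40696 in HCT116.

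HiChIP ligates DNA ends that lie close together in fixed nuclei and then enriches for pieces that carry a chosen histone mark, here H3K27ac, which marks active promoters and enhancers. A PET is 1 sequenced ligation product, and a loop is a pair of anchors, the stretches of DNA between which PETs were counted. The lines were SW620 and SW480 (colorectal adenocarcinoma, labelled Dukes' type C and B), LS513 (Dukes' type C carcinoma) and HCT116 (carcinoma), all bought from a repository and untreated. SW480 and SW620 are known to come from a primary tumour and a metastasis of the same patient. Each line had 1 library, so replicate error is unknown throughout, and every interval is an exact 95% interval of counting error alone. PETs carry no molecular identifiers, so they need not be independent molecules. Filtered loops held 152421 PETs in SW620, 13885 in SW480, 222113 in LS513 and 81579 in HCT116. Same-anchor pairs held 844521 PETs in SW620, 130508 in SW480, 1386645 in LS513 and 863012 in HCT116. Rates are PETs per 1000000 PETs of the same kind in the library and are called normalised PETs. Marker genes of the cell type were not looked up, because no gene annotation of hg19 was used here.

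GTF2I encodes TFII-I, a transcription factor that binds promoter elements and also takes part in signalling from the cell membrane. GTF2IRD1 encodes a relative of TFII-I with the same kind of DNA-binding repeat, and its protein is known to bind the sequence GGATTA and to repress its own gene through such sites. CLIP2 encodes a linker protein that sits at the growing ends of microtubules. All 3 genes belong to the stretch of DNA that is deleted in most people with Williams-Beuren syndrome, and blocks of repeated sequence flank that stretch.

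Acetylated anchors covered these start sites in every line, so promoter sequences at them are shown first. RefSeq promoters were found for 2 of the genes, with 3 start sites in all. Each runs over 300 bases, 250 before to 50 after the start, on the plus strand of GRCh38.p14. Capitals mark GGATTA, or TAATCC where the motif is on the other strand. The coordinates are chr7:74289157-74289456 for CLIP2, chr7:74453656-74453955 for the first GTF2IRD1 start and chr7:74454129-74454428 for the second. They are GRCh38 positions, unlike the hg19 positions of the anchors.
CLIP2: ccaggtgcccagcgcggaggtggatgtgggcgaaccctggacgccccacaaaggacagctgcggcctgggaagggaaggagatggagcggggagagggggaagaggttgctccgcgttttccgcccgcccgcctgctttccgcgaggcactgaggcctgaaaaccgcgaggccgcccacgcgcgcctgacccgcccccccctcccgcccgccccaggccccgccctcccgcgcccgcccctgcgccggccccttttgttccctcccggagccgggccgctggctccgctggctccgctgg
GTF2IRD1 first start: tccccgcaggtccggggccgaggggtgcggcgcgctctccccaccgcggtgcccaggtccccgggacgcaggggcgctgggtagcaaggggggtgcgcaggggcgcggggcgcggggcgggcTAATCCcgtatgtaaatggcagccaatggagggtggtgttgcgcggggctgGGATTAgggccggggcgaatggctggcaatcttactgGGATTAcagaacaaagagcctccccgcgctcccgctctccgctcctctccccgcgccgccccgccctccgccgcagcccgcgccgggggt
GTF2IRD1 second start: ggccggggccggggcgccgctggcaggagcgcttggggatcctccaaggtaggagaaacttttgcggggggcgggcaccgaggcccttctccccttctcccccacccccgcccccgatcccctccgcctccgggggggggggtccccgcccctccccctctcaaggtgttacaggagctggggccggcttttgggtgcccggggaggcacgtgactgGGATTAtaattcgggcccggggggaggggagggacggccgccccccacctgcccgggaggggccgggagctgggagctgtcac
The first GTF2IRD1 start holds GGATTA 3 times, at -128 (on the reverse strand), -77 and -40 relative to the start. The second start holds it 1 time, at -33. The CLIP2 promoter holds none in this window. GGATTA or its reverse complement occurs at least 1 time in 6.36% of 35116 RefSeq promoters of the same length (2234 promoters), and at least 3 times in 15 of them. Another 3 short motifs were searched on both strands. CCAAT was found 1 time at the first GTF2IRD1 start (34.6% of all promoters hold it), CACGTG 1 time at the second start (7.26% of all promoters) and TATAAA at none of the 3 (11.5% of all promoters). No match overlapped another. All 3 promoters are rich in G and C, at 75.3% for CLIP2, 74.0% for the first GTF2IRD1 start and 74.3% for the second, against a median of 58.7% over all promoters.

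All 3 start sites lay inside an anchor in all 4 libraries. The locus held 21 anchors covering 202.4 kb in SW620, 10 covering 81.0 kb in SW480, 20 covering 144 kb in LS513 and 20 covering 144 kb in HCT116. LS513 and HCT116 had the same 20 anchors to the base. SW620 had the longest anchors, 52.3 kb over the GTF2IRD1 start (73854268-73906563) and 50.9 kb over the CLIP2 start (73680204-73731129). The longest anchor was 19.8 kb in SW480, over the GTF2IRD1 start, and 24.8 kb in LS513 and HCT116, over the CLIP2 start (73688659-73713437).

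**Figure D1:**
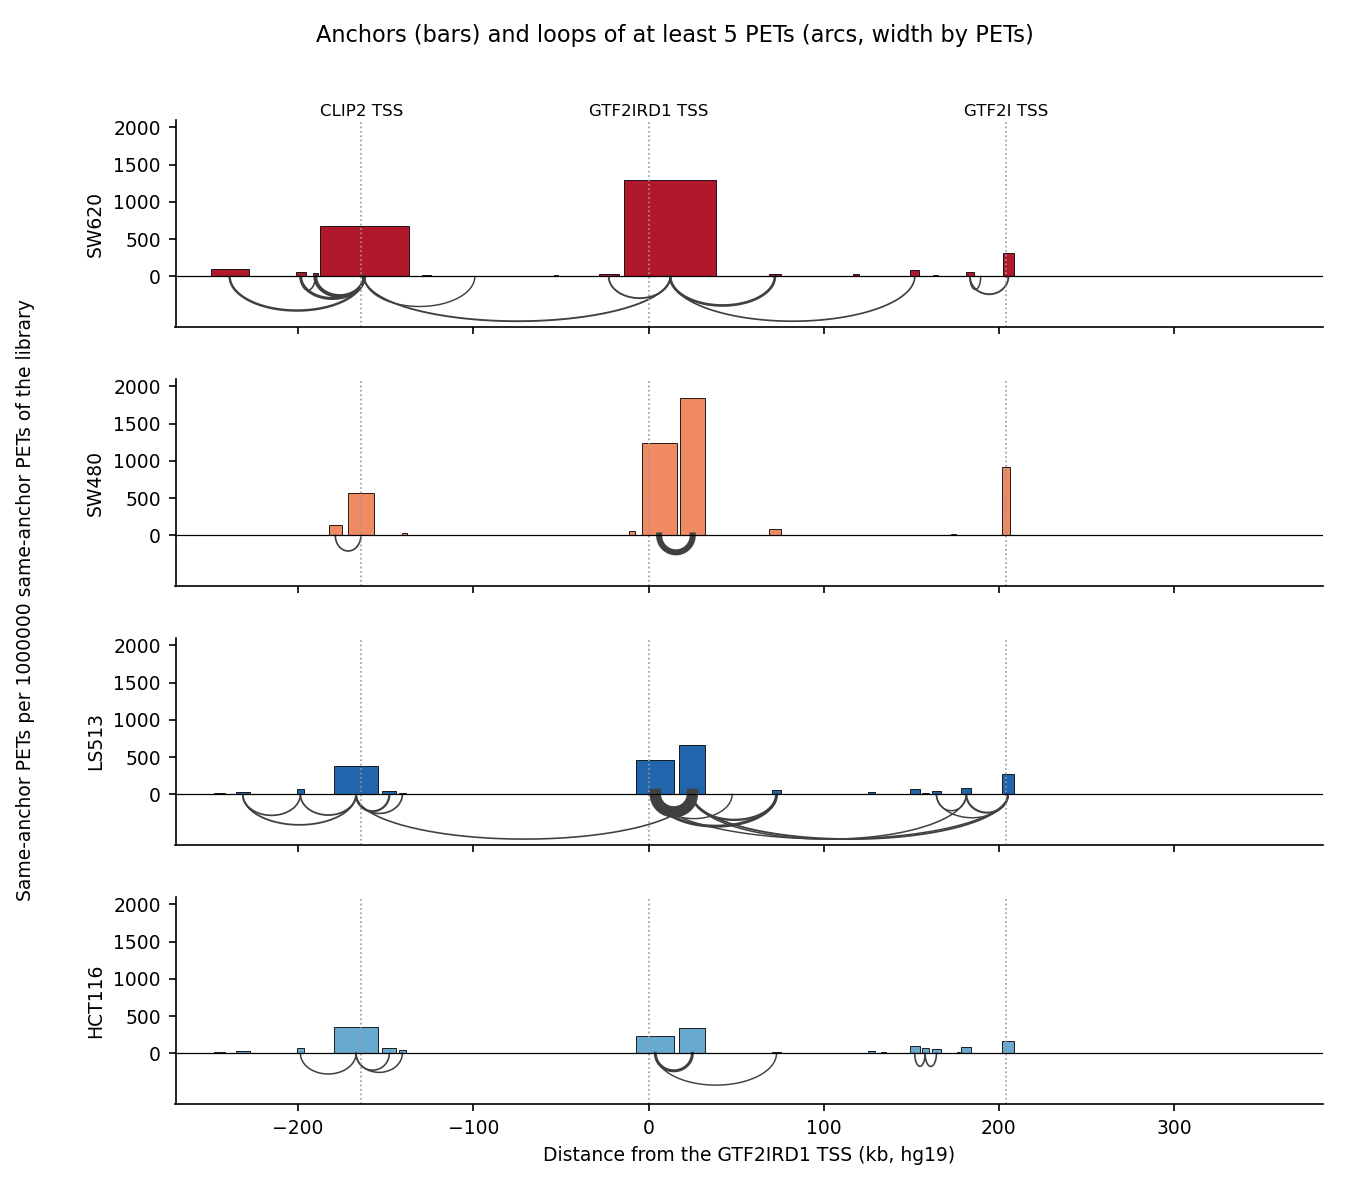
Anchors of the locus (bars, height in normalised same-anchor PETs, width to scale) and loops of at least 5 PETs with both ends in view (arcs between anchor midpoints, thicker with more PETs) against distance from the GTF2IRD1 TSS in kb, 1 panel per line. SW620 has a single anchor of 52.3 kb at GTF2IRD1 where SW480, LS513 and HCT116 have separate anchors joined by their thickest arc, and no panel has an anchor beyond the one over the GTF2I start.

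The loop that chose the locus joined the anchor over the GTF2IRD1 start in SW480 (73864149-73883980) to the next anchor downstream (73886100-73900363), with midpoints 19.2 kb apart. Overlapping loops held 0 PETs in SW620, 60 in SW480, 124 in LS513 and 24 in HCT116. The normalised values were 4321 in SW480 (interval 3299 to 5559), 558 in LS513 (464 to 666) and 294 in HCT116 (189 to 438). The 0 of SW620 has no counting limit, because 1 anchor covered both ends there. By PETs it ranked 1 among all loops of SW480, 23 in LS513 and 120 in HCT116. It made up 60.6% of the loop PETs of the locus in SW480, 26.0% in LS513 and 14.8% in HCT116. The number read as the FDR in the authors' deposited table was 0 for this loop in SW480, LS513 and HCT116.

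SW620 did have an anchor there. Its 52.3 kb anchor covered both of the SW480 anchors, so that a ligation between these places was counted in SW620 as a PET of that anchor with itself, not as a loop. The anchor held 1099 same-anchor PETs and ranked 6 among the 22139 same-anchor pairs of the library, and it ranked 28 in length among 24555 SW620 anchors. When the PETs of the loop and of its anchors with themselves were added, SW620 held 1099 PETs, SW480 462, LS513 1687 and HCT116 514. The loop was 13.0% of that sum in SW480 (interval 10.1 to 16.4), 7.35% in LS513 (6.15 to 8.70) and 4.67% in HCT116 (3.01 to 6.87). Loops with a span within 20% of it and a sum of at least 50 PETs had a median share of 3.67% in SW480 (188 loops), 2.36% in LS513 (2477 loops) and 1.78% in HCT116 (1776 loops). The share at GTF2IRD1 was exceeded by 7 of those loops in SW480, 173 in LS513 and 152 in HCT116. Nothing is read from the place of the SW480 share, because the PETs of this loop in SW480 chose the locus. The gap between the joined anchors was 2.12 kb in SW480 and 2.88 kb in LS513 and HCT116.

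To compare lines whose anchors were cut differently, anchors of the 4 libraries that overlapped by at least 1 bp were merged into sites, a step chosen after seeing the data. PETs within a site are those of its anchors with themselves and with each other, and PETs between sites are the remaining loop PETs. The locus held 27 sites, of which 11 had an anchor in 1 line, 5 in 2 lines, 6 in 3 lines and 5 in all 4 lines. These were 40.7%, 18.5%, 22.2% and 18.5% of the sites, against 30.4%, 25.4%, 30.3% and 13.8% of the 32546 sites of the genome. SW620 lacked an anchor at 6 of the sites (22.2%, against 27.6% of sites genome-wide), SW480 at 21 (77.8% against 73.3%), LS513 at 11 (40.7% against 35.5%) and HCT116 at 11 (40.7% against 36.1%). The 5 sites found in all lines were those over the 3 start sites, 1 centred at -239 kb from the GTF2IRD1 start (73618155-73640402), and 1 centred 72.3 kb after it (73936903-73943646).

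The GTF2IRD1 site (73854268-73906563) was among the strongest of each library. It held 1099 PETs within it in SW620, 475 in SW480, 1687 in LS513 and 514 in HCT116. Normalised to all within-site PETs, these were 1294 in SW620, 3598 in SW480, 1206 in LS513 and 592 in HCT116. It ranked 7 of 21282 sites with PETs in SW620, 1 of 8009 in SW480, 9 of 20026 in LS513 and 63 of 19899 in HCT116. SW480 was highest and HCT116 lowest, while SW620 and LS513 lay close together. The ratio of SW620 over LS513 was 1.07 (interval 0.993 to 1.16), which holds 1.

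The ratio at the GTF2IRD1 site was 0.359 for SW620 over SW480 (interval 0.323 to 0.401), 2.98 for SW480 over LS513 (2.69 to 3.31) and 6.08 for SW480 over HCT116 (5.35 to 6.90). A site was called where the rates differed at least 2-fold, with at least 10 PETs in the line with the higher rate. Such differences were common in SW480, the shallowest library. Of the sites with PETs in both lines, 40.8% were called lower in SW620 than in SW480, 41.6% higher in SW480 than in LS513 and 40.4% higher in SW480 than in HCT116. The median ratio over those sites was 0.593 for SW620 over SW480, 1.58 for SW480 over LS513 and 1.53 for SW480 over HCT116. With only sites that have PETs in all 4 libraries in the denominator, the GTF2IRD1 ratios were 0.570 for SW620 over SW480, 1.76 for SW480 over LS513 and 3.45 for SW480 over HCT116. These ratios with SW480 support nothing on their own, since its leading loop lies inside this site and chose it.

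HCT116 stood below the other lines at the GTF2IRD1 site. For SW620 over HCT116 the ratio was 2.18 (interval 1.97 to 2.43), with 13% of sites called higher in SW620 and a median ratio of 0.798 over sites. For LS513 over HCT116 it was 2.04 (1.84 to 2.25), with 9.46% of sites called higher in LS513 and a median of 0.869. Scaled by the within-site PETs of chromosome 7, the ratio was 1.81 for SW620 over HCT116 and 1.60 for LS513 over HCT116, both under 2-fold.

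**Figure D2:**
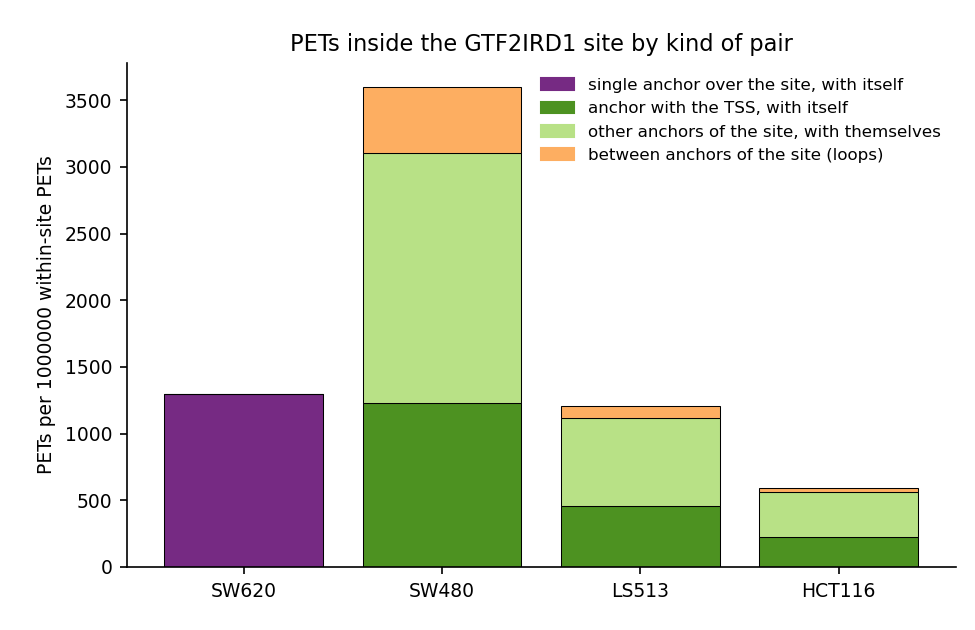
PETs inside the GTF2IRD1 site per 1000000 within-site PETs of each library (vertical axis, bars starting at 0), split by kind of pair. The bar reaches 1294 in SW620, 3598 in SW480, 1206 in LS513 and 592 in HCT116, and that of SW620 has a single kind because 1 anchor covers the site.

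CLIP2 was the most even of the 3 genes in its within-site rate. Its site (73680204-73731129, 50.9 kb) held 574 PETs within it in SW620, 108 in SW480, 625 in LS513 and 423 in HCT116. The normalised values were 676 in SW620, 818 in SW480, 447 in LS513 and 487 in HCT116. The ratio was 0.826 for SW620 over SW480 (interval 0.671 to 1.02) and 0.917 for LS513 over HCT116 (0.809 to 1.04), and both intervals hold 1. It was 1.51 for SW620 over LS513 (1.35 to 1.70) and 1.39 for SW620 over HCT116 (1.22 to 1.58). SW480 stood at 1.83 times LS513 (1.48 to 2.25) and 1.68 times HCT116 (1.35 to 2.08). No ratio at CLIP2 reached 2-fold.

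GTF2I had the shortest of the gene sites (74069496-74076674, 7.18 kb), with 1 anchor in each line. It held 266 PETs within it in SW620, 120 in SW480, 384 in LS513 and 140 in HCT116. The normalised values were 313 in SW620, 909 in SW480, 275 in LS513 and 161 in HCT116, and the order of lines was that at GTF2IRD1. The ratio was 0.344 for SW620 over SW480 (interval 0.277 to 0.431), 1.14 for SW620 over LS513 (0.972 to 1.34), 1.94 for SW620 over HCT116 (1.58 to 2.40) and 1.70 for LS513 over HCT116 (1.40 to 2.08). SW480 stood at 3.31 times LS513 (2.67 to 4.08) and 5.64 times HCT116 (4.38 to 7.24), in directions that were called at 41.6% and 40.4% of sites. GTF2I is known to have near-identical partial copies nearby, and how reads from such copies were placed is not given in the sources used here, so its counts are uncertain.

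**Figure D3:**
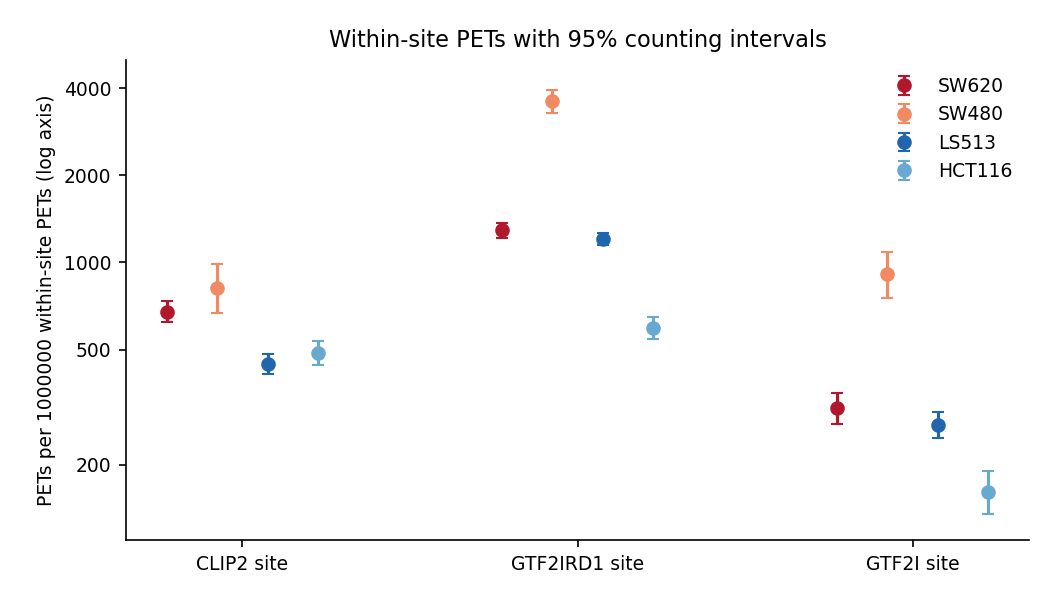
PETs within the sites over the CLIP2, GTF2IRD1 and GTF2I start sites per 1000000 within-site PETs (log axis), 1 point per library with its exact 95% counting interval. At GTF2IRD1 and GTF2I the point of SW480 is highest and that of HCT116 lowest, while at CLIP2 all points lie between 447 and 818.

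Over the whole locus, filtered loops held 327 PETs in SW620, 99 in SW480, 477 in LS513 and 162 in HCT116. The normalised values were 2145 in SW620 (interval 1919 to 2391), 7130 in SW480 (5799 to 8674), 2148 in LS513 (1959 to 2349) and 1986 in HCT116 (1692 to 2316). The intervals of the ratios among SW620, LS513 and HCT116 held 1, at 0.999 for SW620 over LS513 (0.865 to 1.15), 1.08 for SW620 over HCT116 (0.892 to 1.31) and 1.08 for LS513 over HCT116 (0.903 to 1.30). This depended on the anchors used. With loops at anchors that overlap in all 4 libraries, the ratio was 0.608 for SW620 over LS513 (0.483 to 0.763), 0.946 for SW620 over HCT116 (0.685 to 1.32) and 1.56 for LS513 over HCT116 (1.17 to 2.10). In this set the leading loop made 124 of 247 locus PETs in LS513 and 24 of 59 in HCT116. It could not be counted in SW620. With all loops SW480 stood above the other lines, with ratios of 0.301 for SW620 over SW480 (0.240 to 0.381), 3.32 for SW480 over LS513 (2.65 to 4.13) and 3.59 for SW480 over HCT116 (2.77 to 4.64). Among windows of the same length tiled over the chromosomes, 13.9% were called at least 2-fold lower in SW620 than in SW480, 14.7% higher in SW480 than in LS513 and 18.2% higher in SW480 than in HCT116. Nothing is read from these shares, because the SW480 loop chose the locus. Among 3142 windows the locus ranked 101 in SW620, 10 in SW480, 122 in LS513 and 138 in HCT116.

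Same-anchor pairs of the locus held 2369 PETs in SW620, 643 in SW480, 3204 in LS513 and 1506 in HCT116. The normalised values were 2805 in SW620, 4927 in SW480, 2311 in LS513 and 1745 in HCT116, so that SW480 was highest and HCT116 lowest. In SW480, 162 and 240 of the 643 PETs lay at the 2 anchors of the loop that chose the locus. Nothing is therefore read from the ratios with SW480. The ratio was 0.569 for SW620 over SW480 (interval 0.522 to 0.622), 2.13 for SW480 over LS513 (1.96 to 2.32) and 2.82 for SW480 over HCT116 (2.57 to 3.10). It was 1.21 for SW620 over LS513 (1.15 to 1.28), 1.61 for SW620 over HCT116 (1.51 to 1.72) and 1.32 for LS513 over HCT116 (1.25 to 1.41). Chromosome 7 held 6.05% of same-anchor PETs in SW620, 6.55% in SW480, 6.34% in LS513 and 4.98% in HCT116. Scaled by chromosome 7 the ratio was 1.32 for SW620 over HCT116, 2.15 for SW480 over HCT116 and 1.04 for LS513 over HCT116.

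Loops between sites did not separate SW480 from the other lines. They held 327 PETs in SW620, 24 in SW480, 326 in LS513 and 123 in HCT116. Per 1000000 between-site PETs, this was 2214 in SW620, 1932 in SW480, 1551 in LS513 and 1600 in HCT116. The ratio was 1.15 for SW620 over SW480 (interval 0.757 to 1.81), 1.25 for SW480 over LS513 (0.787 to 1.89) and 1.21 for SW480 over HCT116 (0.746 to 1.88). The 24 PETs of SW480 leave these intervals wide, and a difference inside them was not detectable at this depth. SW620 was above LS513 (1.43, interval 1.22 to 1.67) and HCT116 (1.38, 1.12 to 1.72), and LS513 over HCT116 was 0.970 (0.786 to 1.20). At the overlapping anchors the loop ratio of 0.608 has SW620 below LS513, but it does not test this order. It also counts loops within sites, among them the leading loop, with 124 PETs in LS513 and none countable in SW620. Nor were PETs between sites counted at the same sites in each line. SW620 had 53 at 73676378-73679218, where the other lines had no anchor. LS513 had 19 and HCT116 had 5 at 73993102-73997542, where SW620 had no anchor. What such sites add to the ratios of 1.43 and 1.38 was not tested.

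The GTF2IRD1 site alone, taken by its loops to other sites, had its highest rate in SW480. Nothing is read from this, because the site was chosen through SW480, where the rate rests on 20 PETs. The GTF2IRD1 site held 91 such PETs in SW620, 20 in SW480, 135 in LS513 and 38 in HCT116. The rates were 616 in SW620, 1610 in SW480, 642 in LS513 and 494 in HCT116 per 1000000 between-site PETs. The ratio was 0.383 for SW620 over SW480 (interval 0.234 to 0.656), 2.51 for SW480 over LS513 (1.48 to 4.03) and 3.26 for SW480 over HCT116 (1.80 to 5.74). Over sites with such PETs in both lines, 27.8% were called at least 2-fold lower in SW620 than in SW480, 28% higher in SW480 than in LS513 and 31% higher in SW480 than in HCT116. The median ratio of those sites was 1.26 for SW620 over SW480, 0.787 for SW480 over LS513 and 0.743 for SW480 over HCT116. Among SW620, LS513 and HCT116 every interval held 1, with ratios of 0.959 for SW620 over LS513 (0.727 to 1.26), 1.25 for SW620 over HCT116 (0.845 to 1.87) and 1.30 for LS513 over HCT116 (0.901 to 1.92).

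**Figure D4:**
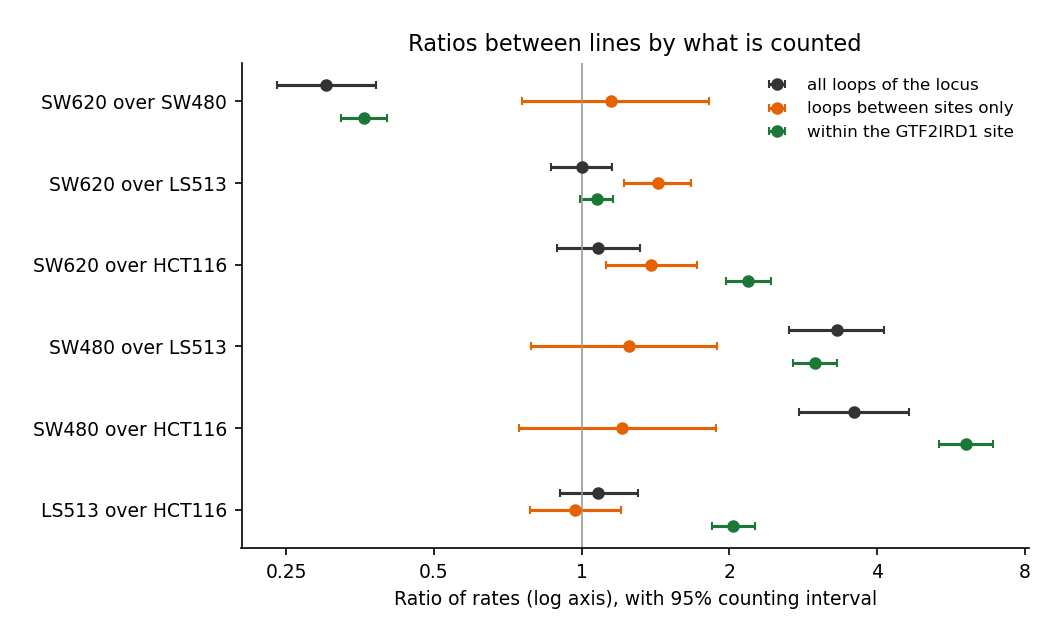
Ratios of rates between pairs of lines (log axis, first-named line over second, bars are exact 95% counting intervals) for all loops of the locus, for loops between sites and for PETs within the GTF2IRD1 site. For SW620 over SW480 the ratio is 0.301 with all loops, 1.15 between sites and 0.359 within the GTF2IRD1 site.

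CLIP2 was the gene with most loop PETs to other sites in SW620. Its site held 139 such PETs in SW620, 6 in SW480, 75 in LS513 and 25 in HCT116. Partner sites numbered 28 in SW620, 4 in SW480, 23 in LS513 and 12 in HCT116. The SW620 anchor covered the full length of the CLIP2 and GTF2IRD1 sites and the anchors of the other lines did not, and what this adds to the rates was not tested. SW620 stood at 2.64 times LS513 (interval 1.98 to 3.54) and 2.89 times HCT116 (1.88 to 4.63), and its ratio over SW480 was 1.95 (0.873 to 5.40). Of the 139 PETs of SW620, 33 went to 73676378-73679218, a site with an anchor in SW620 alone. Further PETs went to other such sites, where the other lines could count none. What these sites add to the ratios and shares was not tested. Sites called at least 2-fold higher in SW620 were 18.6% against LS513 and 24.9% against HCT116, with median ratios of 0.863 and 1.14. PETs to other sites were 19.5% of all PETs of the CLIP2 site in SW620, 5.26% in SW480, 10.7% in LS513 and 5.58% in HCT116. At the GTF2IRD1 site they were 7.65% in SW620, 4.04% in SW480, 7.41% in LS513 and 6.88% in HCT116. At the GTF2I site they were 10.7% in SW620, 4% in SW480, 13.5% in LS513 and 10.8% in HCT116.

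The leading loops of SW620 were at CLIP2. The first held 33 PETs and joined the CLIP2 anchor to a short anchor beside it (73676378-73679218), at a site with no anchor in SW480, LS513 or HCT116. The second held 24 PETs and joined the CLIP2 anchor to 73666514-73672383. This pair of sites held 0 PETs in SW480, which had no anchor there, 12 in LS513 and 6 in HCT116.

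The strongest pair of sites found in all 4 lines joined GTF2IRD1 to the site centred 72.3 kb past its start. It held 20 PETs in SW620, 7 in SW480, 40 in LS513 and 9 in HCT116. It supplied the third loop of SW620 (20 PETs) and of SW480 (4 PETs), and the second and the third of LS513 (24 and 16 PETs, from the 2 anchors of the GTF2IRD1 site). The second loop of SW480 (8 PETs, 73685362-73693088 to 73696362-73711330) lay within the CLIP2 site. In HCT116 the leading loop was the one at GTF2IRD1 (24 PETs), and 3 loops of 7 PETs followed. The first of these lay within the CLIP2 site (73688659-73713437 to 73716146-73723963). The others joined the anchor at 74023855-74027920, before GTF2I, to its neighbours at 74016978-74022941 and 74029616-74035067.

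The start sites of the 3 genes were also joined to each other, at low counts. CLIP2 and GTF2IRD1, 164 kb apart, shared 10 PETs in SW620, 2 in SW480, 7 in LS513 and 0 in HCT116. GTF2IRD1 and GTF2I, 204 kb apart, shared 4 PETs in SW620, 5 in SW480, 15 in LS513 and 2 in HCT116. CLIP2 and GTF2I, 368 kb apart, shared 3 PETs in SW620, 0 in SW480, 4 in LS513 and 1 in HCT116.

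Per 1000000 between-site PETs, CLIP2 to GTF2IRD1 stood at 67.7 in SW620 (interval 32.5 to 124), 161 in SW480 (19.5 to 582) and 33.3 in LS513 (13.4 to 68.6), and the interval of the 0 in HCT116 reached 48.0. These intervals overlap. GTF2IRD1 to GTF2I stood at 27.1 in SW620 (7.38 to 69.3), 403 in SW480 (131 to 939), 71.4 in LS513 (39.9 to 118) and 26.0 in HCT116 (3.15 to 94.0). Here the interval of SW480, from 5 PETs, lay above those of the other lines. Nothing is read from this, because the GTF2IRD1 site was chosen through SW480, where 3 counts already stand for 242. For CLIP2 to GTF2I the interval of the 0 in SW480 reached 297, more than the value of any other line.

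**Figure D5:**
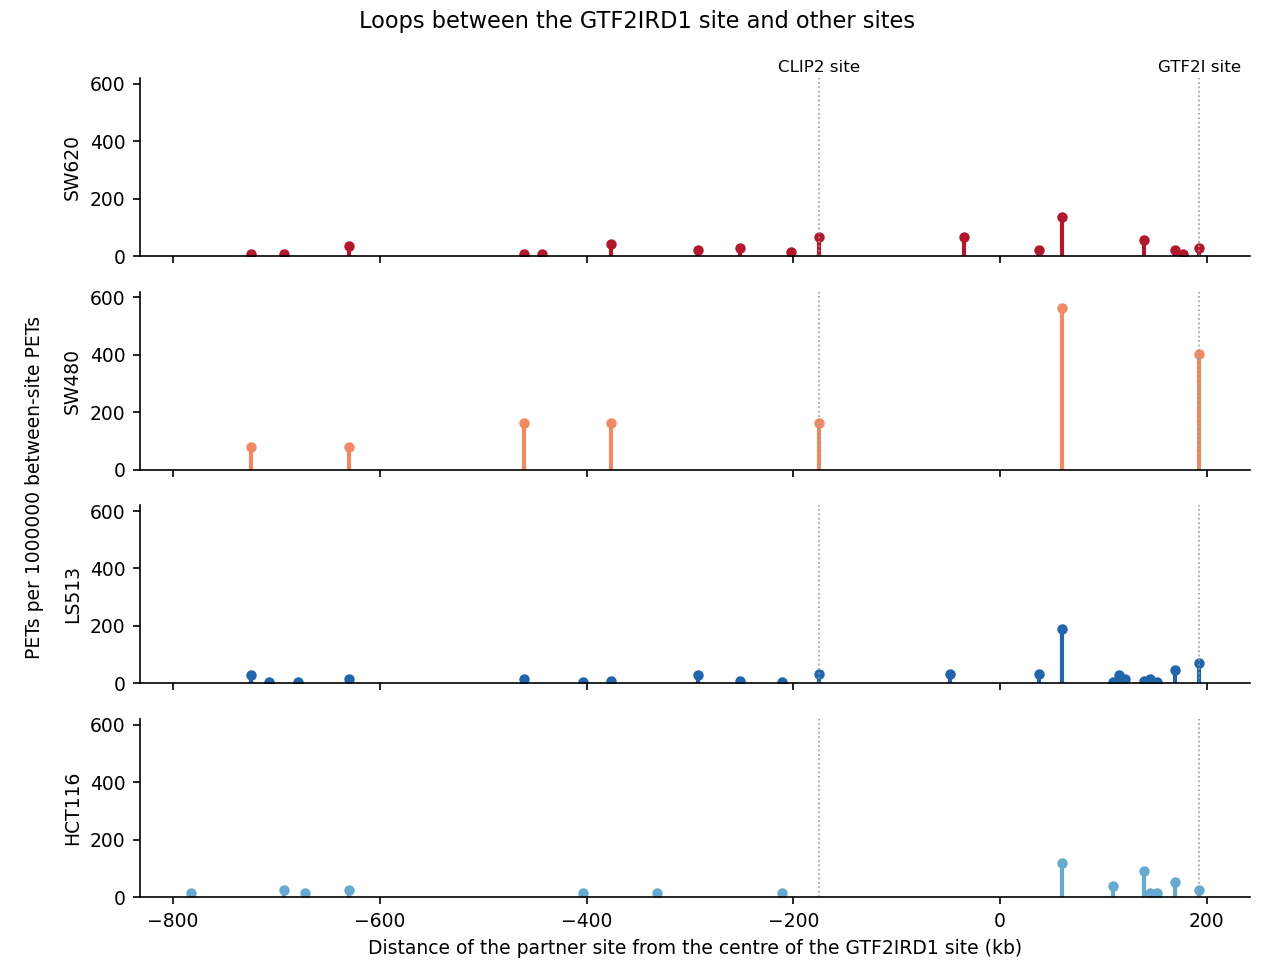
Loops between the GTF2IRD1 site and sites within 800 kb, by distance from the centre of the GTF2IRD1 site in kb (horizontal axis) and in PETs per 1000000 between-site PETs (vertical axis), 1 panel per line, with dotted lines at the CLIP2 and GTF2I sites. The tallest line in each panel is at the site centred 72.3 kb past the GTF2IRD1 start, with 20 PETs in SW620, 7 in SW480, 40 in LS513 and 9 in HCT116.

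At the locus, as over the genome, most pairs of sites were seen in a single line. Of 218 pairs with PETs, 159 were found in 1 line (72.9%, against 69.8% of 120994 pairs genome-wide), 39 in 2 (17.9% against 19.6%), 15 in 3 (6.88% against 9.54%) and 5 in all 4 (2.29% against 1.08%). SW620 held 107 of the pairs, SW480 10, LS513 121 and HCT116 64. Pairs seen in that line alone numbered 69 in SW620 (64.5% of its pairs at the locus, 58.2% of its pairs genome-wide), 1 in SW480 (10% and 40.6%), 65 in LS513 (53.7% and 52.1%) and 24 in HCT116 (37.5% and 31.1%). Loops of a single PET were 57.0% of the loops of the locus in SW620, 50% in SW480, 63.1% in LS513 and 66.2% in HCT116. Loops under 0.01 in the column of the authors' deposited table that was read as an FDR numbered 31 in SW620 (29.0% of the loops of the locus, against 17.2% of those of the library), 6 in SW480 (30% against 14.5%), 24 in LS513 (15.3% against 18.2%) and 9 in HCT116 (11.7% against 12.8%).

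Beside the pairs of GTF2IRD1 with GTF2I and with the site 72.3 kb past its start, 3 pairs were found in all lines. The site at 73618155-73640402 and CLIP2 shared 17 PETs in SW620, 1 in SW480, 18 in LS513 and 4 in HCT116. A site before the locus (73228666-73273288) shared 7 PETs with CLIP2 in SW620, 2 in SW480, 4 in LS513 and 3 in HCT116. With GTF2IRD1 it shared 5 PETs in SW620, 1 in SW480, 3 in LS513 and 2 in HCT116.

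Of the loop PETs that left the locus, most went towards lower coordinates, where sites lay nearer. Of the PETs between sites, those with a partner before the locus numbered 90 of 327 in SW620 (27.5%), 9 of 24 in SW480 (37.5%), 89 of 326 in LS513 (27.3%) and 34 of 123 in HCT116 (27.6%). Those with a partner after it numbered 17 in SW620, 0 in SW480, 18 in LS513 and 4 in HCT116. After the end of the GTF2I site no library had an anchor until 74487235, a gap of 411 kb that starts 4.67 kb past the GTF2I start. Of 32523 gaps between neighbouring sites of a chromosome, 1169 were longer (3.59%), and the median gap was 16.5 kb. How reads from repeated sequence were placed is not given in the sources used here. Whether the gap lacks acetylation was not tested. Loops to sites after the locus had to span the gap of 411 kb. On the other side a site lay 32.2 kb before the first site of the locus, centre to centre. The counts before and after the locus therefore do not show a preferred direction. RefSeq places NCF1 and GTF2IRD2 next after GTF2I in GRCh38, and RFC2, LAT2, EIF4H, LIMK1 and ELN on the other side of CLIP2.

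LS513 and HCT116 shared their anchors, so they could be compared anchor by anchor with no merging. Of the 20 anchors, 19 had at least 10 PETs in the line with the higher rate. LS513 was at least 2-fold higher at 2 of them and at least 2-fold lower at 3, against 9.65% and 21.4% of 16462 identical anchors. The higher ones were the anchor over the GTF2IRD1 start, with 640 same-anchor PETs in LS513 and 195 in HCT116 (ratio 2.04, interval 1.74 to 2.41), and the anchor at 73938462-73943646, with 81 PETs in LS513 and 11 in HCT116 (4.58, 2.43 to 9.54). A loop of 24 PETs in LS513 and 5 in HCT116 joined these anchors.

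The downstream anchor of the leading loop held 923 PETs in LS513 and 295 in HCT116 (1.95, interval 1.71 to 2.23), and that of GTF2I held 384 in LS513 and 140 in HCT116 (1.71, 1.40 to 2.09). The CLIP2 anchor held 526 in LS513 and 308 in HCT116 (1.06, 0.922 to 1.23). The anchors lower in LS513 were 73725547-73729381 in the CLIP2 site (21 PETs in LS513 and 33 in HCT116, ratio 0.396), 74000838-74003460 (4 and 11 PETs, 0.226) and 74023855-74027920 (24 and 59 PETs, 0.253). The median ratio was 0.988 over the locus and 0.871 over all identical anchors.

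Loops between identical anchors were compared in the same way. Of the loops of the locus, 45 were found in both LS513 and HCT116, 112 in LS513 alone and 32 in HCT116 alone. These were 23.8%, 59.3% and 16.9%, against 28.3%, 54.5% and 17.2% of the 89340 loops between identical anchors over the genome. Among the 18 with at least 5 PETs in a library, the interval of the ratio lay above 1 for 1 loop, the leading one (124 PETs in LS513 and 24 in HCT116, ratio 1.90, interval 1.22 to 3.07). It lay below 1 for 2 loops, those of the anchor at 74023855-74027920 with its neighbours on either side, each with 2 PETs in LS513 and 7 in HCT116 (0.105, 0.0106 to 0.551). Of 10877 such loops over the genome, 3.64% had an interval above 1 and 6.65% had one below 1. For the remaining loops the depth did not separate the lines.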

How the data were processed

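H3K27ac HiChIP of 4 untreated cell lines, with 1 library each, was read as deposited. HiC-Pro and the build hg19 (GRCh37) are named, without a version, per the submitters' processing notes. How loops were called, with which tool and settings, and where the anchors came from is not given in the sources used here. Each deposited count was a whole number of PETs per pair of anchors, in tables of pairs on 1 chromosome, of filtered pairs (5 kb to 2 Mb apart when checked) and of pairs on different chromosomes. A further deposited table, whose name holds that of the loop caller Mango, held a number between 0 and 1 per loop, taken as a p-value of the authors after FDR adjustment, although the column has no header.

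The autosomes and X entered. Counts were divided by the library total of the same kind, and ratios have exact conditional (Clopper-Pearson) 95% intervals, which cover counting error only. In the calls, a floor of 3 counts took the place of a count of 0. Printed rates and ratios have no floor. Calls needed a 2-fold difference with at least 10 PETs in the line with the higher rate. The background was windows of 650 kb, sites of the genome or identical anchors. With 1 library per line no significance test was possible. The calls were tried on simulated counts with changes larger than 2-fold and counting noise alone. This does not show how often calls at 2-fold are false in these data. The members, genes and lists were chosen with earlier results of these data known. The text names the 3 genes, the 3 loops with most PETs per library, loops between the genes and the strongest anchors; other sites were named after their values were seen. No annotation of hg19 was used, so gene positions came from the locus definition and no other gene was placed. Promoters came from RefSeq (GRCh38.p14). Alternatives covered scaling, a minimum of 2 PETs, anchor sets, anchor length and, chosen after seeing the data, merged sites. Software was scipy 1.17.1, pandas 2.3.3, numpy 2.4.6 and matplotlib 3.10.9 under Python 3.11.15.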

Additional observations from a re-analysis of the deposited data

How the results depend on the processing

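Of 66 ratios under alternatives, 40 stayed inside the counting interval of the reported value and 26 left it, while 6 counts of windows stayed within 1.5 times. The alternative lay on the other side of 1 for 8 ratios, all of them loop ratios of the locus, and its interval held 1 for 7 of these. The exception was SW620 over LS513 between sites, at 1.43 (1.22 to 1.67), against 0.999 with all loops. Both counts include sites that have an anchor in only 1 of these lines. The ratio of SW620 over SW480 was 1.15 between sites, a count that leaves out the leading loop of SW480, and 0.301 with all loops. The others were 1.11 (at least 2 PETs) and 1.13 (scaled by chromosome 7) for SW620 over LS513, 0.95 (both anchors inside) and 0.946 (overlapping anchors) for SW620 over HCT116, and 0.889 (scaled by chromosome 7) and 0.970 (between sites) for LS513 over HCT116. Between sites the loop ratio was also 1.38 for SW620 over HCT116, 1.25 for SW480 over LS513 and 1.21 for SW480 over HCT116. With loops of at least 2 PETs it was 4.52 for SW480 over LS513 and 4.67 for SW480 over HCT116. With both anchors inside the locus it was 0.223 for SW620 over SW480. At anchors overlapping in all libraries it was 0.608 for SW620 over LS513, 2.04 for SW480 over LS513 and 1.56 for LS513 over HCT116. The leading loop per same-anchor PETs of its anchors gave 1.88 for SW480 over LS513 and 3.05 for SW480 over HCT116, against 7.74 and 14.7 per filtered PETs. The same-anchor ratio within sites was 0.513 for SW620 over SW480. Per kb of anchor it was 1.10 for SW620 over LS513 and 1.47 for SW620 over HCT116. Scaled by chromosome 7 it was 1.32 for SW620 over HCT116, 2.15 for SW480 over HCT116 and 1.04 for LS513 over HCT116. The GTF2IRD1 within-site ratio, over sites with PETs in all libraries, was 0.570 for SW620 over SW480, 1.76 for SW480 over LS513 and 3.45 for SW480 over HCT116. Scaled by chromosome 7 it was 1.81 for SW620 over HCT116, 4.61 for SW480 over HCT116 and 1.60 for LS513 over HCT116. The cause of these differences was not tested. Depth limits SW480 most, where the floor of 3 counts stands for 216 normalised loop PETs, against 13.5 in LS513. No paired analysis was possible because each line had 1 library.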

Other observations

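Anchors of the locus also took part in pairs between chromosomes, which no comparison above uses. These held 231 PETs in SW620, 21 in SW480, 224 in LS513 and 96 in HCT116, and no pair held more than 2 PETs. They were 7.78% of all PETs of the locus anchors in SW620, 2.74% in SW480, 5.64% in LS513 and 5.40% in HCT116. The same share over the whole library was 5.27% in SW620, 2.66% in SW480, 3.90% in LS513 and 3.10% in HCT116. Pairs on chromosome 7 more than 2 Mb apart held 44 PETs in SW620, 3 in SW480, 62 in LS513 and 13 in HCT116. The median span of the loops of the locus, weighted by PETs, was 76.8 kb in SW620, 19.2 kb in SW480, 48.1 kb in LS513 and 37.0 kb in HCT116, against 67.7, 52.5, 72.5 and 66.8 kb over the libraries in the same order. The 19.2 kb of SW480 is the span of the leading loop, which held 60.6% of its loop PETs there and chose the locus. That loop could not be counted in SW620, so nothing is read from these differences in span.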
